A study of Mus musculus with 7 samples.

Results

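The genes that mark the oligodendrocyte lineage and its myelin were examined in the cervical spinal cords of 8-week-old mice. A list of 36 genes was used, of 55487 in the deposited count table, and each was found by its symbol in the GENCODE M21 annotation. They were ordered by stage into 2 precursor genes (*Pdgfra* and *Cspg4*), 3 genes of committed cells (*Gpr17*, *Bcas1* and *Enpp6*) and 31 genes grouped as mature myelin genes. RNA-seq libraries were compared from 4 *Neat1*-KO; hSOD1G93A mice and 3 *Neat1*-WT; hSOD1G93A mice, 1 library per mouse. *Neat1*-KO mice were homozygous for a knockout allele of *Neat1*, which encodes a long non-coding RNA, and *Neat1*-WT mice carried the wild-type gene. All 7 mice carried the human SOD1G93A transgene, a mutant superoxide dismutase 1 that causes motor neuron disease in mice, so no animal without the transgene entered the comparison, and the labels do not give the sex of the animals. The libraries are named here by genotype and by the replicate number of the labels, *Neat1*-KO replicates 1 to 4 and *Neat1*-WT replicates 2 to 4.

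Oligodendrocytes wrap axons of the central nervous system in myelin, a stack of compacted membrane rich in cholesterol and galactolipids. They arise from dividing precursors, which carry the PDGF receptor and the NG2 proteoglycan, and pass through a short committed stage before they switch on the myelin genes under the control of SOX10, OLIG2 and MYRF. In the spinal cord they fill the white matter tracts that surround the grey matter, and in SOD1-mutant mice they are known to degenerate and to be replaced by newly formed cells.

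The libraries held between 19661878 and 26031517 counts. Levels are given as CPM, which are counts scaled to 1 common library total with TMM factors. *Neat1* was between 4.04 and 5.52 CPM in *Neat1*-KO and between 80.5 and 118 CPM in *Neat1*-WT mice (log2 fold change -4.25 ± 0.15 SE, Benjamini-Hochberg adjusted p = 1.52e-08 in edgeR's quasi-likelihood F-test), so every library was on the side of its label. Of 18449 genes tested, 6 were called (4 lower and 2 higher in *Neat1*-KO), where a call needed an adjusted p under 0.1 and a log2 fold change over 0.58 in size. The median log2 fold change of all genes tested was 0.0062.

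None of the 36 genes was called in either direction, against 0.0325% of all genes tested (0.0217% lower and 0.0108% higher), and their adjusted p-values ran from 0.605 to 0.999 (edgeR quasi-likelihood test). DESeq2 and limma-voom also called 0 of them. All 36 had passed the filter on low counts. At an unadjusted p under 0.05, 9 of them (25.0%) were lower in *Neat1*-KO mice, against 2.4% of all genes tested, and 0 were higher, against 2.24% (4.64% in either direction). These 9 were *Ugt8a*, *Cldn11*, *Mobp*, *Tspan2*, *Mal*, *Ermn*, *Erbb3*, *Car2* and *Gpr17*. The log2 fold change was below 0 for 29 genes (80.6%), against 48.2% of all genes tested, and above 0 for 7, with a median of -0.09 and a range from -0.43 to 0.14. The genotypes did not overlap for 5 genes (13.9%), with *Neat1*-KO the lower in each, against 2.57% of all genes tested with *Neat1*-KO below, 2.91% with it above and 5.48% in either direction. Among the 8707 genes expressed at or above the lowest mean level of the list, the shares were close to those over all genes tested: 2.65% were lower at an unadjusted p under 0.05, 2.61% had every *Neat1*-KO library below, and 49.5% had a fold change below 0. By stage, the median log2 fold change was -0.02 for the precursor genes, -0.20 for the genes of committed cells and -0.10 for the mature genes, of which 24 of 31 were below 0. The mature median was -0.063 without *Neat1*-WT replicate 4 and -0.065 without *Neat1*-KO replicate 4. The differences were small, and for 34 of the 36 genes the 95% interval of the log2 fold change lay within 0.58 of 0. Genes of 1 cell type share their cells within each library and are not independent of each other, and in bulk tissue fewer cells of a type and less RNA per cell cannot be told apart. The count of 9 rested in part on *Neat1*-WT replicate 4: it was 2 (*Ugt8a* and *Mobp*, 5.56% against 2.21% of all genes) without that library and 5 without *Neat1*-KO replicate 4.

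**Figure D1:**
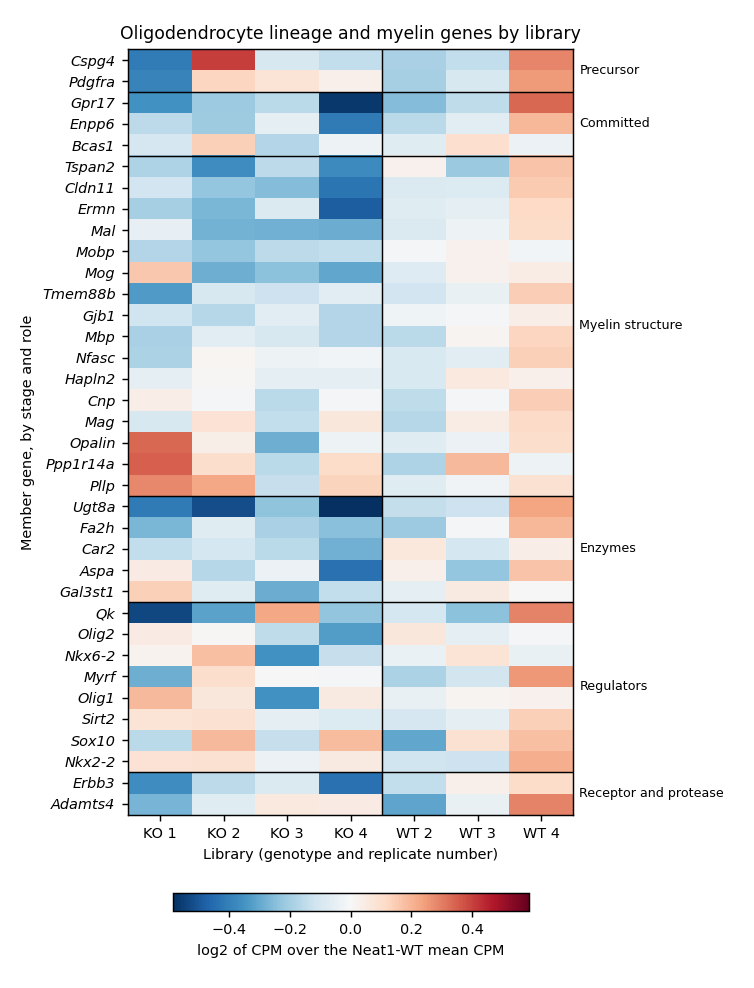
Level of each of the 36 genes (rows, by stage and role) in each library (columns), as the log2 of its CPM over the mean CPM of the 3 *Neat1*-WT libraries, with red above and blue below that mean. The *Neat1*-WT replicate 4 column is mostly red. The rows of 14 genes are blue in all 4 *Neat1*-KO libraries. Among these are *Ugt8a*, *Cldn11*, *Ermn*, *Mobp* and *Gjb1*, the 5 genes whose genotypes did not overlap.

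The enzymes that make myelin lipids and serve the metabolism of the cell included the largest difference of the list. *Ugt8a* encodes the galactosyltransferase that makes galactosylceramide, the main glycolipid of myelin. It lies on chromosome 3 (chr3:125865271-125938619 on mm10, minus strand). *Neat1*-KO replicates 1 to 4 held 402, 373, 454 and 356 CPM of it, whereas *Neat1*-WT replicates 2 to 4 held 485, 491 and 628 CPM. The highest *Neat1*-KO library was thus below the lowest of the *Neat1*-WT libraries, and *Neat1*-WT replicate 4 stood above the other two. The *Neat1*-KO mean of 396 ± 42.7 CPM (SD, n = 4) compared with a *Neat1*-WT mean of 535 ± 81.1 CPM (SD, n = 3), and the log2 fold change was -0.43 (95% interval -0.66 to -0.21). Its unadjusted p was 0.00116 and its adjusted p 0.605 in edgeR, and a two-sided exact permutation test of its log2 CPM gave p = 0.0571, where 0.0286 is the smallest p that 4 and 3 mice allow. *Ugt8a* was lower at an unadjusted p under 0.05 in all 16 alternative fits, with a log2 fold change between -0.50 and -0.30. Its adjusted p ranged there from 3.17e-05, with no filter on low counts, to 1.0, and was 0.0384 by DESeq2, whereas its fold change never reached the size needed for a call.

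The other 4 enzymes also had values below 0. *Car2*, the carbonic anhydrase of oligodendrocytes, was at 464, 477, 458 and 421 CPM in *Neat1*-KO and at 534, 477 and 526 CPM in *Neat1*-WT mice (log2 fold change -0.17, 95% interval -0.32 to -0.02, edgeR unadjusted p = 0.0302). *Neat1*-KO replicate 2 and *Neat1*-WT replicate 3 met at the same level, so the genotypes overlapped. *Fa2h*, which hydroxylates the fatty acids of galactolipids, had a log2 fold change of -0.19, *Aspa*, which cleaves N-acetylaspartate to release acetate, -0.14, and *Gal3st1*, which sulfates galactosylceramide to sulfatide, -0.08. For these 3 genes the 95% interval held 0. The summed level of the 5 enzymes was between 1146 and 1302 CPM in *Neat1*-KO mice and between 1399.6 and 1645 CPM in *Neat1*-WT mice.

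The bases upstream of the transcription start are shown for the 4 genes with separate genotypes and 1 start site in the RefSeq table, to give the sequence context of the genes with the clearest separation. They come from RefSeq on GRCm38.p6, run 5′ to 3′ on the strand of the gene, and end at the start site or, for *Mobp*, before the first annotated exon. Capitals mark matches on either strand to a SOX motif (ACAAAG), a MYRF motif (CTGGCAC or CTGGTAC) or an E-box (CANNTG, the motif of OLIG proteins), whose matches may overlap. The intervals are chr3:125938653-125938902 (minus strand) for *Ugt8a*, chr3:31149670-31149919 (plus) for *Cldn11*, chr2:58052865-58053114 (minus) for *Ermn* and chr9:120149492-120149706 (plus) for *Mobp*.
Ugt8a: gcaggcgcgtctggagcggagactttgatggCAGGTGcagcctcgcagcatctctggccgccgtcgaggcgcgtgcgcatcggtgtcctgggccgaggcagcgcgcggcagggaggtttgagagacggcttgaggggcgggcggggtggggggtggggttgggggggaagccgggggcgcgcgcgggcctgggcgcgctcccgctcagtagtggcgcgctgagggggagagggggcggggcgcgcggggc
Cldn11: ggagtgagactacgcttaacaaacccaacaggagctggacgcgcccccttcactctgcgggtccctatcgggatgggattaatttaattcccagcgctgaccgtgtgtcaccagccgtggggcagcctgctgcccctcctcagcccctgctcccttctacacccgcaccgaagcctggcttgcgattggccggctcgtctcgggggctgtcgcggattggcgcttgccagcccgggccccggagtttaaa
Ermn: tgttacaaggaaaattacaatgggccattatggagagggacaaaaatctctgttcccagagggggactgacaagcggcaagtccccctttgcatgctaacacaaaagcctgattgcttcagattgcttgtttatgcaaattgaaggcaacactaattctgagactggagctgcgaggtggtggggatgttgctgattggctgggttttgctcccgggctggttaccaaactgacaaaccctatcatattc
Mobp: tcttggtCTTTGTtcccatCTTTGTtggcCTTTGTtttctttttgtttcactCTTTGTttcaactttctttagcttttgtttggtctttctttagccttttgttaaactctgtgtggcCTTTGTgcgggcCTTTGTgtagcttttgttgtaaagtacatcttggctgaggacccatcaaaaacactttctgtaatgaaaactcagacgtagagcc
The *Mobp* stretch held 6 matches to the SOX motif, all on the strand opposite to the gene, and that of *Ugt8a* held 1 E-box, while those of *Cldn11* and *Ermn* held no match to these letters. RefSeq gave promoters for 26 of the 36 genes, as 35 windows of 300 bases from 250 before to 50 after each start. The SOX motif was in 22.9% of these windows, against 18.7% of 32851 windows of all genes, the MYRF motif in 17.1% against 7.1%, and the E-box in 74.3% against 72.3%. Some genes have several start sites, such as *Gjb1* with 4 windows and *Mag* with 3. Counted once per gene, the shares were 23.1% against 21% for the SOX motif, 19.2% against 8.1% for the MYRF motif and 65.4% against 75% for the E-box, whose order was thus opposite to that over windows. These are counts of letters and say nothing of binding in the cord. Promoters of *Gpr17*, *Bcas1*, *Mbp*, *Fa2h*, *Car2*, *Myrf*, *Sox10*, *Olig1*, *Erbb3* and *Adamts4* were not analysed here.

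Among 16 genes of the myelin sheath and its junctions, 13 had a log2 fold change below 0, and 5 of them an unadjusted p under 0.05, with a median of -0.13. *Cldn11* (chr3:31149920-31164324, plus strand) encodes the claudin of the tight junctions between myelin layers. It was at 656, 606, 594 and 527 CPM in *Neat1*-KO and at 669.5, 669.7 and 788 CPM in *Neat1*-WT mice, with a log2 fold change of -0.25 (95% interval -0.44 to -0.07, edgeR unadjusted p = 0.0119, adjusted p = 0.983). The genotypes did not overlap, although *Neat1*-KO replicate 1 and *Neat1*-WT replicate 2 were close.

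*Mobp* (chr9:120149707-120181484, plus strand), an abundant basic protein of compact myelin, showed the tightest separation. Its levels were 3519, 3383, 3568 and 3585 CPM in *Neat1*-KO and 3942, 4031 and 3915 CPM in *Neat1*-WT mice, or means of 3514 ± 91.6 (SD, n = 4) and 3962 ± 60.7 CPM (SD, n = 3). The gap between the genotypes was wider than the spread within either one. The log2 fold change was -0.17 (95% interval -0.30 to -0.04, edgeR unadjusted p = 0.0122, adjusted p = 0.986), and the exact permutation test gave its smallest possible p of 0.0286. *Mobp* was the only gene of the 36 to reach that value.

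*Ermn* (chr2:58045113-58052864, minus strand) encodes ermin, a cytoskeletal protein of the mature sheath. It was at 388, 369, 419 and 318 CPM in *Neat1*-KO and at 423, 429 and 481 CPM in *Neat1*-WT mice, with a log2 fold change of -0.25 (95% interval -0.45 to -0.05, edgeR unadjusted p = 0.0164). *Neat1*-KO replicate 3 nearly met *Neat1*-WT replicate 2, and *Neat1*-KO replicate 4 was the lowest. *Gjb1* (chrX:101376378-101385629, plus strand), the gap junction protein connexin 32, was at 118, 114, 122 and 114 CPM in *Neat1*-KO and at 126, 127 and 131 CPM in *Neat1*-WT mice. The libraries did not overlap, but the log2 fold change of -0.13 had a 95% interval that held 0 (-0.27 to 0.01, edgeR unadjusted p = 0.0727).

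For *Tspan2* and *Mal* the genotypes overlapped. *Tspan2*, a tetraspanin of early myelin and the lowest fold change among the sheath genes, was at 354, 311, 360.3 and 309.6 CPM in *Neat1*-KO and at 407, 344 and 449.8 CPM in *Neat1*-WT mice (log2 fold change -0.26, 95% interval -0.47 to -0.06, edgeR unadjusted p = 0.0147). *Mal*, a proteolipid that carries membrane to the sheath, was at 897, 764, 762 and 757 CPM in *Neat1*-KO and at 873, 908 and 997 CPM in *Neat1*-WT mice (log2 fold change -0.22, 95% interval -0.39 to -0.05, edgeR unadjusted p = 0.0149). In *Mal* the overlap came from *Neat1*-KO replicate 1 alone, since the other 3 *Neat1*-KO libraries were nearly equal and below every *Neat1*-WT library.

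For the sheath genes best known as myelin proteins the 95% intervals held 0. *Mbp*, the myelin basic protein and by far the most abundant gene of the list, was at 16808, 18272, 17913 and 17013 CPM in *Neat1*-KO and at 17165, 19350.5 and 20919 CPM in *Neat1*-WT mice. The order of its libraries was mixed, with *Neat1*-WT replicate 2 among the *Neat1*-KO libraries, and the log2 fold change was -0.13 (95% interval -0.29 to 0.03). *Mog*, an antigen on the outer surface of myelin, was at 400.2, 294, 303 and 289.6 CPM in *Neat1*-KO and at 340.2, 365 and 369.7 CPM in *Neat1*-WT mice. *Neat1*-KO replicate 1 was above every *Neat1*-WT library and the other 3 *Neat1*-KO libraries were below them. The log2 fold change was -0.16 (edgeR unadjusted p = 0.158), and without *Neat1*-KO replicate 1 it was -0.28 (edgeR unadjusted p = 0.00080, adjusted p = 0.212). That fit leaves out the library that stood apart, so its p is no separate check. With any other library left out the log2 fold change was between -0.19 and -0.11 (edgeR unadjusted p 0.141 to 0.351). *Tmem88b* had a log2 fold change of -0.15. *Mag*, the glycoprotein of the membrane next to the axon, had -0.02, *Cnp*, the phosphodiesterase of its cytoplasmic channels, -0.03, *Hapln2*, a link protein of the nodal matrix, -0.04, and *Nfasc*, an adhesion protein of nodes and paranodes, -0.05. The 3 sheath genes above 0 were *Opalin* (0.03), *Ppp1r14a*, an inhibitor of myosin phosphatase (0.11), and *Pllp*, plasmolipin (0.14). *Pllp* was at 282, 271, 211 and 254 CPM in *Neat1*-KO and at 220.1, 228 and 246 CPM in *Neat1*-WT mice, and its 95% interval held 0 (-0.07 to 0.34). Its value is uncertain, since 54.2% of its exon bases lie opposite exons of the antisense gene *Gm45767*, which holds 33085 counts over the 7 libraries against 38042 for *Pllp*, and whether the counting used strand is not given in the sources used here.

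**Figure D2:**
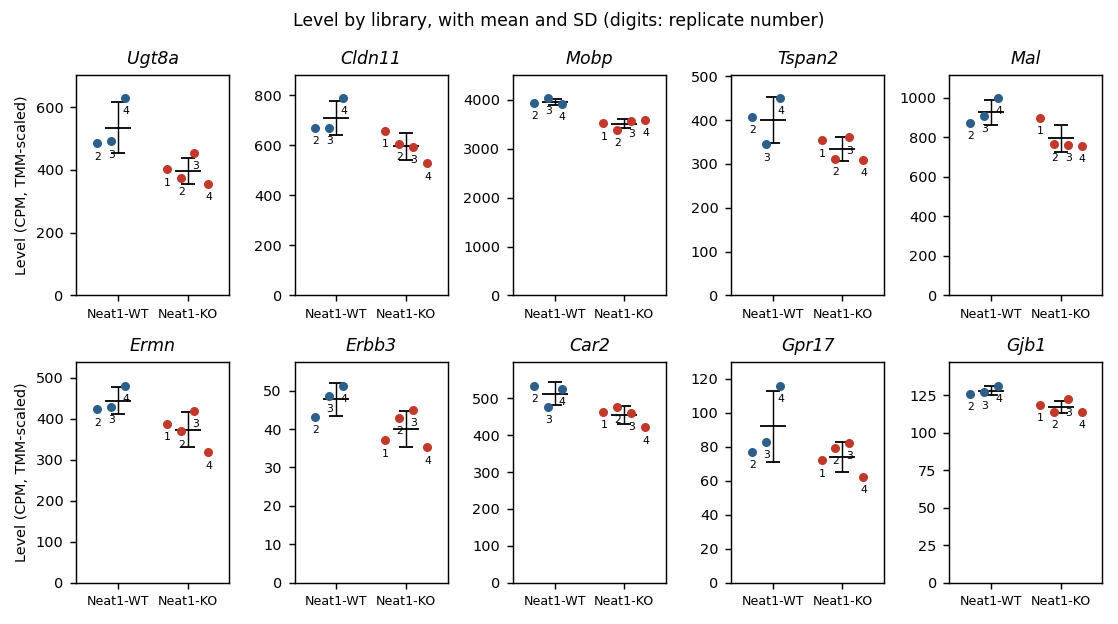
Level in CPM of the 9 genes with an unadjusted p under 0.05 and of *Gjb1* in each library, with blue points for *Neat1*-WT and red points for *Neat1*-KO, the replicate number under each point and black bars for mean and SD (n = 3 and 4). The vertical axes start at 0, and the genotypes are apart in *Ugt8a*, *Cldn11*, *Mobp*, *Ermn* and *Gjb1*.

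The genes of committed cells, which are expressed in the short window between precursor and myelinating cell, had a median log2 fold change of -0.20, and of -0.097 without *Neat1*-WT replicate 4. *Gpr17*, a G protein-coupled receptor that is switched off before myelin forms, was at 72.0, 79.5, 82.6 and 62.3 CPM in *Neat1*-KO and at 77.2, 83.0 and 116 CPM in *Neat1*-WT mice. *Neat1*-WT replicate 4 was well above the rest, while *Neat1*-WT replicates 2 and 3 lay at the level of the higher *Neat1*-KO libraries. Its log2 fold change was -0.31 (95% interval -0.61 to -0.02, edgeR unadjusted p = 0.0369, adjusted p = 0.992) and -0.12 without *Neat1*-WT replicate 4. *Enpp6*, a choline phosphodiesterase of newly formed oligodendrocytes, was at 75.9, 72.9, 81.2 and 63.2 CPM in *Neat1*-KO and at 75.6, 80.9 and 96.5 CPM in *Neat1*-WT mice, with a log2 fold change of -0.20 with an interval that held 0 (-0.43 to 0.02). Without *Neat1*-WT replicate 4 it was also -0.097. *Bcas1*, which marks cells that begin to myelinate, was at 775, 915, 737 and 813 CPM in *Neat1*-KO and at 791, 889 and 811 CPM in *Neat1*-WT mice (log2 fold change -0.04, 95% interval -0.21 to 0.14). Antisense transcripts also lie opposite *Bcas1*, of which *Bcas1os1* covers 11.7% of its exon bases.

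In the main analysis the 2 precursor genes were nearly level between genotypes, with wide intervals. With the level of Schwann cell markers as a covariate, a fit described below, the log2 fold change was -0.12 for *Pdgfra* and -0.14 for *Cspg4*. *Pdgfra*, the receptor for the growth factor that keeps precursors dividing, was at 37.2, 53.2, 51.6 and 49.8 CPM in *Neat1*-KO and at 42.6, 45.7 and 58 CPM in *Neat1*-WT mice, with a log2 fold change of -0.02 (95% interval -0.31 to 0.26). *Cspg4*, the NG2 proteoglycan, which pericytes also express, was at 14.1, 24.8, 17.5 and 16.9 CPM in *Neat1*-KO and at 16.4, 16.9 and 22.8 CPM in *Neat1*-WT mice, also -0.02 (95% interval -0.40 to 0.36). In both genes *Neat1*-KO replicate 1 was the lowest library. The mean log2 level of the mature genes exceeded that of the precursor genes by 3.56, 2.91, 3.12 and 3.15 in *Neat1*-KO and by 3.34, 3.33 and 3.10 in *Neat1*-WT mice, so this balance of stages overlapped between the genotypes.

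The transcription factors and other regulators had 4 of 8 genes below 0, a median log2 fold change of -0.02, and 0 genes with an unadjusted p under 0.05. Several of them, such as *Olig2* and *Sox10*, are active from the precursor stage on. The lowest was *Qk*, an RNA-binding protein that governs the splicing and transport of myelin mRNAs, at 466, 544, 789 and 574 CPM in *Neat1*-KO and 628, 572 and 825 CPM in *Neat1*-WT mice (log2 fold change -0.19, 95% interval -0.53 to 0.16). It varied 1.77-fold among the libraries, more than it differed between the genotypes. The highest was *Nkx2-2*, a factor of early differentiation, at 25.3, 25.4, 23.3 and 24.7 CPM in *Neat1*-KO and at 22.0, 21.9 and 27.7 CPM in *Neat1*-WT mice (log2 fold change 0.05, 95% interval -0.17 to 0.27). *Olig2*, which specifies the lineage, had -0.10, *Nkx6-2* -0.06, *Myrf*, which switches on the myelin genes, -0.04, *Olig1* 0.00, *Sirt2*, a deacetylase of the sheath, 0.01 and *Sox10* 0.03. Part of the exons of *Nkx6-2* (12.9%), *Nkx2-2* (9.67%), *Olig1* (7.26%) and *Ermn* (6.52%) lie opposite another gene.

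The 2 remaining genes were a receptor and a protease. *Erbb3*, through which oligodendrocytes and Schwann cells respond to neuregulin, was at 37.1, 42.9, 45.0 and 35.2 CPM in *Neat1*-KO and at 43.1, 48.6 and 51.3 CPM in *Neat1*-WT mice. *Neat1*-KO replicate 3 was above *Neat1*-WT replicate 2, and the log2 fold change was -0.25 (95% interval -0.47 to -0.03, edgeR unadjusted p = 0.0289, adjusted p = 0.992). *Adamts4*, a matrix protease of mature oligodendrocytes, was between 104 and 131 CPM in *Neat1*-KO and between 101 and 154 CPM in *Neat1*-WT mice, with a log2 fold change of -0.05.

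**Figure D3:**
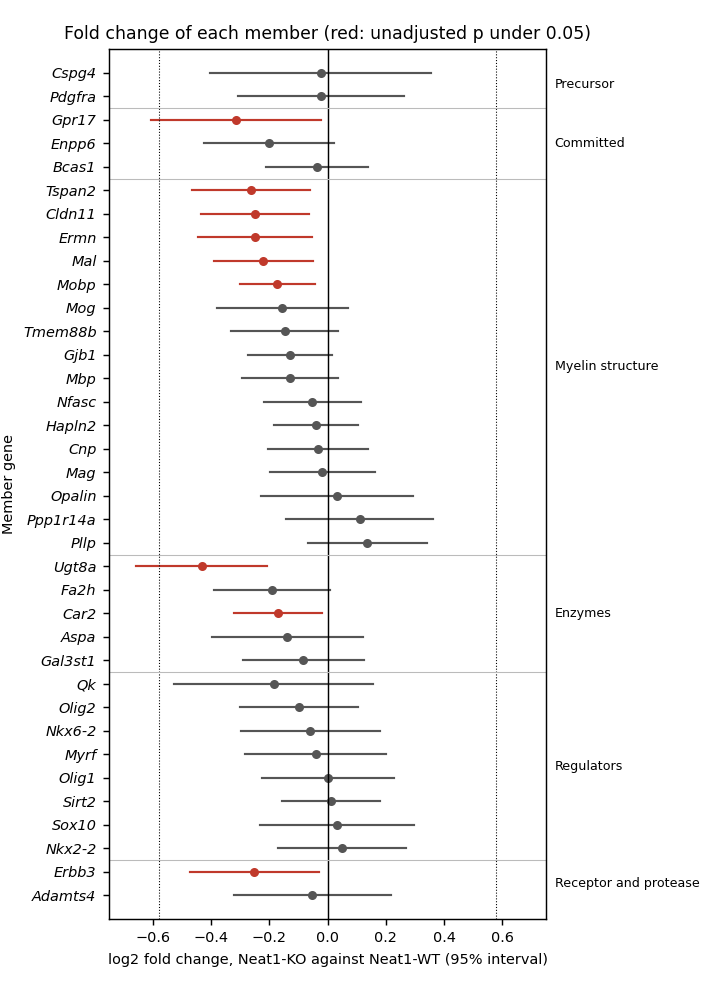
Log2 fold change of each of the 36 genes in *Neat1*-KO against *Neat1*-WT mice (points) with its 95% interval (lines) by stage and role, in red where the unadjusted edgeR p was under 0.05, with dotted lines at the size needed for a call (0.58). Of the 36 points, 29 lie left of 0, and the intervals of *Ugt8a* and *Gpr17* cross the left dotted line.

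Per length of exon the levels spanned the list widely. *Mbp* stood at 2149.7 CPM per kb on average over the 7 libraries, followed by *Mobp* at 541, *Cnp* at 426, *Cldn11* at 345 and *Mal* at 306. The lowest were *Cspg4* at 1.55, *Pdgfra* at 4.82 and *Erbb3* at 7.2 CPM per kb. Counts were between 274 and 453751 per gene and library. Counting error was not compared with the spread between mice for single genes. Together the 36 genes held 3.11%, 3.26%, 3.2% and 3.1% of the CPM in *Neat1*-KO and 3.19%, 3.46% and 3.74% in *Neat1*-WT mice, so the genotypes overlapped. The 35 genes other than *Mbp* held between 1.4% and 1.43% in *Neat1*-KO and between 1.47% and 1.65% in *Neat1*-WT mice. These ranges are separate only because *Mbp*, the most abundant gene, whose libraries overlapped, was left out.

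The libraries of a genotype were not alike in these genes. *Neat1*-WT replicate 4 was the highest of the 7 libraries for 22 of the 36 genes (61.1%), against 15.1% of all genes tested, and the lowest for 0. *Neat1*-KO replicate 4 was the lowest for 13 genes (36.1%, against 11.4% of all genes tested) and the highest for 0. *Neat1*-KO replicate 1 was the highest library for 6 genes (16.7%, against 21.6% of all genes tested), *Mog*, *Opalin*, *Pllp*, *Ppp1r14a*, *Gal3st1* and *Olig1*, and the lowest for 8 (22.2%, against 18.3%), shares near those of all genes. Without *Neat1*-WT replicate 4, 22 of the 36 genes had a log2 fold change below 0 (61.1%, against 49.0% of all genes) and the median was -0.06.

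Schwann cells, which myelinate the nerve roots attached to the cord, share 13 genes of the list, *Mbp*, *Mag* and *Ugt8a* among them. Of 10 Schwann cell markers, 9 were tested and 1, *Pmp2*, was at or under 3 counts in every library. Their summed level was 194, 536, 353 and 421 CPM in *Neat1*-KO and 191, 229 and 562 CPM in *Neat1*-WT mice, a 2.94-fold range within which the genotypes overlapped. Of the 9, 8 had a log2 fold change above 0, with a median of 0.29 and a range from -0.05 to 0.66, and 0 had an unadjusted p under 0.05 in edgeR, so these markers lay on the side of 0 opposite to most listed genes. *Prx*, a protein of Schwann cells in nerve, was between 3.03 and 47.1 CPM in *Neat1*-KO and between 3.8 and 40.8 CPM in *Neat1*-WT mice. *Neat1*-WT replicate 4 thus had the highest sum of these markers, as it had the highest level of most listed genes. With the mean log2 level of the markers as a covariate, added after the data were seen, all 9 genes kept an unadjusted p under 0.05 and a fold change below 0, and 13 genes in all had them. The 9 had been picked by that p in the same libraries, so this fit is no separate check of them. In that fit the median log2 fold change was -0.13 for the precursor genes, -0.22 for the genes of committed cells and -0.12 for the mature genes. In the main analysis these medians were -0.02, -0.20 and -0.10, so the order of the stages depended on the fit. The part of Schwann cells in the results was not tested. The 13 shared genes had a median log2 fold change of -0.13, with 11 below 0 and 3 lower at an unadjusted p under 0.05. The 23 genes outside this shared group had a median of -0.06, with 18 below 0 and 6 lower at an unadjusted p under 0.05. Markers of the meninges moved with those of Schwann cells, at summed levels of 81.3, 217, 177 and 164 CPM in *Neat1*-KO and 76.1, 119 and 231 CPM in *Neat1*-WT mice, with *Col1a1* at a log2 fold change of 0.31 and *Col1a2* of 0.13. Of these 7 markers 6 were above 0, with a median of 0.27. At an unadjusted p under 0.05, 1 was higher, against 2.24% of all genes tested, which was *Lum* (log2 fold change 0.66, edgeR unadjusted p = 0.0214). The part of the meninges in the results was not tested.

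**Figure D4:**
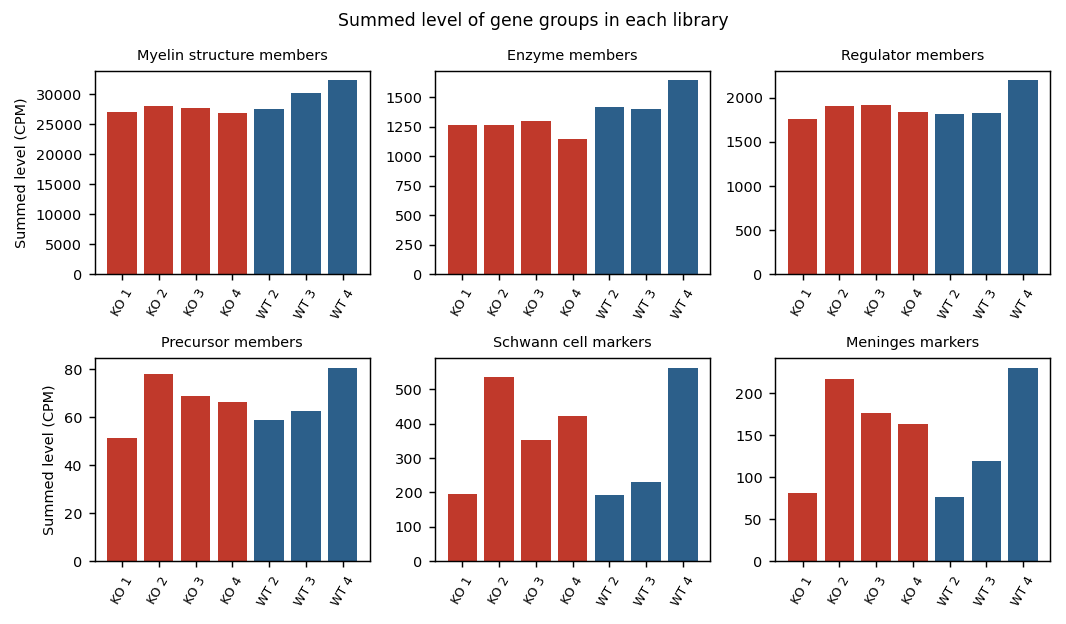
Summed level in CPM of 4 groups of the listed genes and of the markers of Schwann cells and meninges in each library, red for *Neat1*-KO and blue for *Neat1*-WT replicates, with axes from 0. *Neat1*-WT replicate 4 has the tallest bar in all 6 panels, and the enzymes are lower in the 4 *Neat1*-KO libraries (1146 to 1302 CPM) than in the 3 *Neat1*-WT libraries (1399.6 to 1645 CPM).

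Markers of other cell types were also counted, with 0 genes called. Of 10 astrocyte markers 0 had an unadjusted p under 0.05 (*Aqp4* at a log2 fold change of -0.09 and *Slc1a2* at -0.08), and of 10 microglia markers, 8 of them above 0, also 0 (*Cx3cr1* at 0.26 and *P2ry12* at 0.20). By the same unadjusted p, 2 of 10 neuron markers were higher, against 2.24% of all genes tested, and *Slc6a5* had the smallest p. *Rbfox3* at 0.02 and *Snap25* at -0.03 were not among them. For 2 of the 10, every *Neat1*-KO library was above every *Neat1*-WT library, against 2.91% of all genes tested. All 6 motor neuron markers had a log2 fold change below 0, with a median of -0.25. Of these 6, 3 (50%, against 2.4% of all genes tested) were lower at that p, among them *Slc18a3* (-0.30), while *Chat* was at -0.09. For the 36 listed genes the median was -0.09 and that share 25%, so a lean below 0 was not particular to them. Of 7 endothelial markers 1 was lower (14.3%, against 2.4% of all genes tested), while *Cldn5* at 0.03 and *Pecam1* at -0.06 were not. Of 4 blood markers 0 were lower (*Hbb-bs* at -0.20 and *Hba-a1* at -0.46).

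Other genes of the lineage, not among the 36, were read from the same edgeR fit, with 0 called. Of 53 such genes, 38 (71.7%) had a log2 fold change below 0, with a median of -0.07, and 5 (9.43%, against 2.4% of all genes tested) were lower at an unadjusted p under 0.05. Among 11 further precursor genes 10 were below 0, and the smallest unadjusted p belonged to *Neu4*, a sialidase (log2 fold change -0.30, unadjusted p = 0.034 by edgeR). Among 10 further genes of committed cells 6 were below 0. *Tcf7l2*, a transcription factor of that stage, was at 2.67, 3.22, 3.94 and 3.2 CPM in *Neat1*-KO and at 4.02, 4.1 and 4.18 CPM in *Neat1*-WT mice, with no overlap (log2 fold change -0.33, edgeR unadjusted p = 0.0962). Among 32 further genes of mature cells 22 were below 0, and 4 (12.5%, against 2.4% of all genes tested) were lower at an unadjusted p under 0.05. The smallest p was that of *Cryab*, a small heat shock protein that oligodendrocytes hold at high level, at 242, 268, 242 and 248 CPM in *Neat1*-KO and at 271, 309 and 284 CPM in *Neat1*-WT mice (log2 fold change -0.20, edgeR unadjusted p = 0.0133, adjusted p = 0.992). Its genotypes did not overlap.

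Genes that act on oligodendrocytes or beside them were mixed. Of 24 genes of myelination signalling 12 were below 0, and 1 (4.17%, against 2.4% of all genes tested) was lower at an unadjusted p under 0.05. This was *Nrg1*, the neuregulin ligand that axons present to ERBB receptors, at 39.7, 35.1, 41.0 and 44.5 CPM in *Neat1*-KO and at 59.3, 50.3 and 49.0 CPM in *Neat1*-WT mice. All *Neat1*-KO libraries were below all *Neat1*-WT libraries, the log2 fold change was -0.40 (95% interval -0.62 to -0.19), and the unadjusted p was 0.00148 and the adjusted p 0.649 in edgeR. Of 15 genes of sphingolipid and galactolipid turnover 10 were below 0, and *Elovl1*, which lengthens the fatty acids of sphingolipids, had the smallest p (log2 fold change -0.20, edgeR unadjusted p = 0.0449).

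Of 10 genes of nodes and paranodes, where myelin meets the axon, 5 were below 0. *Kcna1*, the potassium channel beside the paranode, was at 208, 195, 181 and 189.9 CPM in *Neat1*-KO and at 242, 221 and 222 CPM in *Neat1*-WT mice, without overlap (log2 fold change -0.24, edgeR unadjusted p = 0.00532, adjusted p = 0.84). Of 5 genes of lactate transport and use 2 were below 0, and *Ldhb* had the smallest p (log2 fold change 0.11, edgeR unadjusted p = 0.272). Of 8 genes that stressed or immune-reactive oligodendrocytes express 6 were above 0. At an unadjusted p under 0.05, 2 of the 8 were higher, against 2.24% of all genes tested, and 0 were lower. *C4b*, the complement component, was at 21.5, 202, 148 and 84.6 CPM in *Neat1*-KO and at 29.8, 41.6 and 50.8 CPM in *Neat1*-WT mice (log2 fold change 1.49 ± 0.51 SE, edgeR unadjusted p = 0.0116, adjusted p = 0.983). *Neat1*-KO replicate 1 was the lowest of the 7 libraries and the other 3 *Neat1*-KO libraries were the highest, and astrocytes also express *C4b*. *B2m*, the light chain of MHC class I, had a log2 fold change of 0.25 (edgeR unadjusted p = 0.0176).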

How the data were processed

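The deposited file holds raw read counts per gene, as the authors made them from paired-end reads of directional poly(A) libraries: trimming with Trimmomatic 0.38, alignment with HISAT2 2.1.0 and counting of uniquely mapped reads with featureCounts 1.6.3, on mm10 per the submitters' processing notes. The annotation release and the strand setting of the counting are not given in the sources used here. Symbols came from GENCODE M21 (55227 of 55487 genes, the other 260 hold 0.00446% of the counts). Nothing in the labels ties replicate numbers to a litter or batch. Within each genotype, any 2 libraries differed by more than sampling noise (chi-square per gene 7.63 to 16.7).

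Counts were filtered by filterByExpr, scaled by TMM (factors 0.991 to 1.008) and tested with edgeR 4.0.16 (R 4.3.3) by the quasi-likelihood F-test with Benjamini-Hochberg adjustment over 18449 genes, with a biological coefficient of variation of 0.128. Calls needed an adjusted p under 0.1 with a log2 fold change over 0.58 in size. Intervals are 95%. The exact permutation test over 35 splits used log2 CPM with a pseudocount of 0.5. The tests were tested on simulated data. The genes described, the other lists (further lineage genes, signalling, lipids, nodes, metabolism, stress, and markers of Schwann cells, astrocytes, microglia, neurons, motor neurons, endothelium, meninges and blood) and the motifs were chosen with earlier results of these data known. Named in full were the genes with the highest and lowest fold change of each stage or role, those with an unadjusted p under 0.05 or separate genotypes, of each other list the gene with the smallest p, and of each marker list its first 2 genes, of which 1 Schwann cell gene is not reported here. *B2m*, *Tcf7l2* and *Lum* were given values for their p or separation, chosen after these were seen. Alternatives were other scaling factors, filters and thresholds, DESeq2 1.42.0, limma-voom 3.58.1, the replicate block, the *Xist* and Schwann cell covariates (the last added after the data were seen) and each library left out.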

Additional observations from a re-analysis of the deposited data

Results flagged for a closer look

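For 3 genes, 1 of the 4 *Neat1*-KO libraries lay far from the other 3, with a gap to its nearest neighbour that made up most of the range of the 4. The gap was 0.882 of the range for *Mog* and 0.947 for *Mal*, where *Neat1*-KO replicate 1 was the high library in both (400.2 and 897 CPM), and 0.916 for *Hapln2*, where *Neat1*-KO replicate 2 was the high library at 165 CPM and the other 3 lay between 158 and 159 CPM. These shares are above the 95% critical value of Dixon's test for 4 values. Of 41 results looked at in this way, chance alone would give about 2.05, since it marks about 1 in 20 groups.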

How the results depend on the processing

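None of the 36 genes was called in the main analysis or in any of the 16 alternative fits, and the 9 genes lower at an unadjusted p under 0.05 had a log2 fold change below 0 in all 16. The 9 were picked in the same libraries, so these fits are no separate check of them. The count of 9 ran from 2 to 12 when 1 library was left out, with 2 without *Neat1*-WT replicate 4 and 5 without *Neat1*-KO replicate 4, and the count of all genes called, 6 in the main analysis, ran from 3 (without *Neat1*-WT replicate 3) to 31 (without *Neat1*-KO replicate 1), with 11 without *Neat1*-WT replicate 4. That count was 124 with no filter on low counts, 27 with DESeq2 and 39 with the replicate block. The cause was not tested. With the replicate block 6 of the 36 genes were lower at an unadjusted p under 0.05, 5 of the 9 and *Mog* (edgeR unadjusted p = 0.0054), while *Mobp*, *Gpr17*, *Car2* and *Erbb3* were not. Only *Neat1*-KO has a replicate 1, so that library adds nothing to the genotype comparison in the block fit. The block fit also leaves only 2 residual degrees of freedom to estimate the spread. Libraries with the same number had deviations correlated at -0.20, -0.12 and -0.015, within the range of pairs with different numbers (-0.21 to 0.17). These few pairs cannot show whether a number marks a shared litter or batch. *Xist* was at or near 0 in every library, so that covariate carries no difference of sex.

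Values near 0 changed sign. With the replicate block the log2 fold change was 0.091 for *Pdgfra*, 0.074 for *Cspg4*, 0.0080 for *Mag*, -0.092 for *Opalin*, 0.044 for *Myrf*, -0.078 for *Olig1*, -0.010 for *Sirt2* and 0.032 for *Adamts4*. With *Xist* as a covariate it was 0.057 for *Pdgfra*, 0.0033 for *Mag*, -0.057 for *Opalin*, 0.016 for *Myrf*, -0.029 for *Olig1*, -0.052 for *Sirt2* and 0.052 for *Adamts4*. With the Schwann cell covariate it was -0.042 for *Sox10* and -0.0012 for *Sirt2*. For *Olig1* it was -0.0033 with median-of-ratios factors or DESeq2, -0.00082 with no filter and -0.011 with limma-voom.

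With 1 library left out, 14 genes changed sign in at least 1 fit. Their log2 fold changes ran from -0.19 to 0.11 (*Adamts4*), -0.10 to 0.015 (*Bcas1*), -0.10 to 0.044 (*Cnp*), -0.21 to 0.14 (*Cspg4*), -0.096 to 0.039 (*Mag*), -0.12 to 0.10 (*Myrf*), -0.095 to 0.020 (*Nfasc*), -0.0090 to 0.17 (*Nkx2-2*), -0.15 to 0.026 (*Nkx6-2*), -0.068 to 0.10 (*Olig1*), -0.089 to 0.12 (*Opalin*), -0.11 to 0.12 (*Pdgfra*), -0.035 to 0.083 (*Sirt2*) and -0.10 to 0.12 (*Sox10*). The median over the 36 genes ran from -0.12 to -0.06, that of the 2 precursor genes from -0.14 to 0.13, that of the 3 genes of committed cells from -0.28 to -0.097 and that of the 31 mature genes from -0.12 to -0.063. The count of genes higher at an unadjusted p under 0.05, 0 with all libraries, ran from 0 to 1. With 4 and 3 mice the exact permutation test cannot give a p below 0.0286.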
